A study of Mus musculus with 22 samples.

Results

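The 40 genes described here encode the machinery that copies DNA and were chosen by name, with no use of their values. All 40 were found among the 18487 genes of the deposited table, and all 40 passed the filter on low values (10 or more in 2 or more of the 22 libraries), as did 17275 genes in all. The table gives poly(A)-selected RNA from E14, a mouse embryonic stem cell (ESC) line, in 11 groups of 2 libraries each. In 10 groups the cells were treated with a compound that acts on chromatin, and the remaining group is labelled NC, a label that names no compound. Acetylated histones are the target of 4 of these: Bromosporine occupies the bromodomains that read them, Valproate acts against the deacetylases that erase them, and both Garcinol and CPTH2 act against the acetyltransferases that write them. Methylation is the target of 4 more. DZNep makes S-adenosylhomocysteine accumulate, which slows methyltransferases in general, MS023 acts on type I arginine methyltransferases, Chaetocin on lysine methyltransferases and UNC0379 on SETD8, which methylates H4K20. IOX1 acts on 2-oxoglutarate oxygenases, which include histone demethylases. The label OICR gives no full compound name and is used as it stands. The labels give no dose, exposure time or vehicle, so the compounds were compared as labelled and not at matched doses. All groups share the cell line, and the study's methods, which do not mention these compounds, describe growth in serum with LIF.

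Replication is prepared when the origin recognition complex (ORC), CDC6 and CDT1 load the ring-shaped MCM2 to MCM7 helicase onto DNA. CDC45 and the GINS complex then turn the loaded ring into the active CMG helicase. DNA polymerase alpha with primase lays down primers, the RFC complex loads the sliding clamp PCNA, and polymerases delta and epsilon extend the strands. Many of these genes are transcribed under E2F factors as cells enter S phase, and ESCs spend much of their cycle in S phase. In bulk RNA, fewer cells in S phase and less RNA of a gene per cell cannot be told apart.

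The values are normalized read counts that were brought to a single distribution, with a median of 409 and a maximum of 221616 in every library, so depth per library is unknown and a change shared by most genes would not be visible. All 12 ESC markers examined were above 0 in every library, with a summed level of 189812 to 317535. Being above 0 is not particular to them, as some markers of other cell types, such as Gata4 and Krt8, were too. Labels do not say whether the 2 libraries of a group came from separate cultures, so the p-values measure the spread between these libraries, which may be technical. Groups were compared with limma on log2(value + 1), and a call needed both a change over 2-fold and a p below 0.05 after Benjamini-Hochberg adjustment. Changes are on that log2 scale, as compound minus NC, and ± is the SD (n = 2) beside a mean value and the SE beside a log2 change.

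Promoter sequences are shown because the E2F word is the regulatory element these genes are best known for. The 250 bases before each RefSeq start of a gene were searched on both strands, with overlapping matches counted. The search was for the E2F words TTTCCCGC, TTTCGCGC, TTTGCCGC and TTTGGCGC, and for CCAAT, a box bound by NF-Y. An E2F word was found for 8 of the 33 members with a promoter sequence (24.2%), namely Orc1, Cdc6, Mcm5, Mcm6, Mcm7, Gins3, Rfc3 and Pola1. The share was 3.53% of all 12329 genes of the table with such a sequence (435 genes). CCAAT was found for 22 of 33 members (66.7%) and for 40.8% of all genes. A match describes letters only, and no binding was measured here. Of the members with an adjusted p under 0.05 against NC or in the F test below, only Orc1 holds an E2F word. Mcm10, Orc2, Rfc5, Pola2, Pold1, Pole2 and Fen1 hold none. The promoters of 4 of the 8 members with a word are printed 5′ to 3′ on the strand of the gene. They are from RefSeq on GRCm38.p6, with the E2F words in capitals, and Mcm5, Mcm6 and Pola1 passed neither test. Distances are to the RefSeq start. GENCODE, used for gene positions below, starts some genes further upstream. The words of Orc1, Cdc6, Mcm7, Gins3 and Rfc3 therefore lie within the gene as GENCODE places it. Orc1 (chr4:108579204-108579453, plus strand) holds 1 word 27 bases before the RefSeq start. Mcm5 (chr8:75109259-75109508, plus strand) holds 2 overlapping words, at 153 and 149 bases. Mcm6 (chr1:128359706-128359955, minus strand) holds 3, at 110, 106 and 47 bases. Pola1 (chrX:93632156-93632405, minus strand) holds 1, at 138 bases.
Orc1: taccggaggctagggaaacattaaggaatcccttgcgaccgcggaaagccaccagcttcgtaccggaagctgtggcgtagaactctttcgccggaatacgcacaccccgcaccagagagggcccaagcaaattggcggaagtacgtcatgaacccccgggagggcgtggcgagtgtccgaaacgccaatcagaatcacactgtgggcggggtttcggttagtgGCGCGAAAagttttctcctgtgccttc
Mcm5: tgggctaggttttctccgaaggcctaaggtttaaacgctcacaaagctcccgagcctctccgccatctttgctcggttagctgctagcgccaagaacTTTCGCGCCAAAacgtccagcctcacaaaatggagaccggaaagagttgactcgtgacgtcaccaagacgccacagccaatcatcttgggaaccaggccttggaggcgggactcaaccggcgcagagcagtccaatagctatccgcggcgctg
Mcm6: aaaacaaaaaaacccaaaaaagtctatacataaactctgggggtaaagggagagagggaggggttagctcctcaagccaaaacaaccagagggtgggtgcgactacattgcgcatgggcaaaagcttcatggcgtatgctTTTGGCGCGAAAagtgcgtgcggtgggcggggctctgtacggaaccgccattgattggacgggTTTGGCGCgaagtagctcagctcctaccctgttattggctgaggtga
Pola1: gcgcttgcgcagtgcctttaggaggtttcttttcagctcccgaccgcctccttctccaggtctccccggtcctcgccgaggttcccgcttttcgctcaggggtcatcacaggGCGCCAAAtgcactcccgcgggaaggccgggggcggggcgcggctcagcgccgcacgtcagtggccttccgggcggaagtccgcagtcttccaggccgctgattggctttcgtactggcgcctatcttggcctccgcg

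In NC the replication genes were expressed at middle to high levels. By value they lay between the 47.2 percentile of tested genes (Gins3) and the 99.1 percentile (Mcm3). To compare genes, each NC value was divided by the length of the longest transcript. Per kb, Mcm3 was highest (10201.9 and 10613), followed by the single-strand binding subunit Rpa3, Pcna and Mcm5. The NC libraries of Mcm5 were far apart on this scale (6143 and 11631) and spanned the levels of Rpa3 and Pcna, so the order among these genes is not larger than their spread. The 6 MCM subunits, which form a ring with 1 copy of each, did not have equal RNA levels. In NC replicate 1 the highest of them per kb, Mcm3, was 2.96 times the lowest, Mcm4. In NC replicate 2 the highest was Mcm5, at 2.68 times Mcm4. Across the 22 libraries this ratio was lowest in Bromosporine replicate 1 and highest (4.49) in DZNep replicate 2. The lowest member was Gins3, a GINS subunit, with values of 332 and 501 (416.5 ± 119.5).

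**Figure D1:**
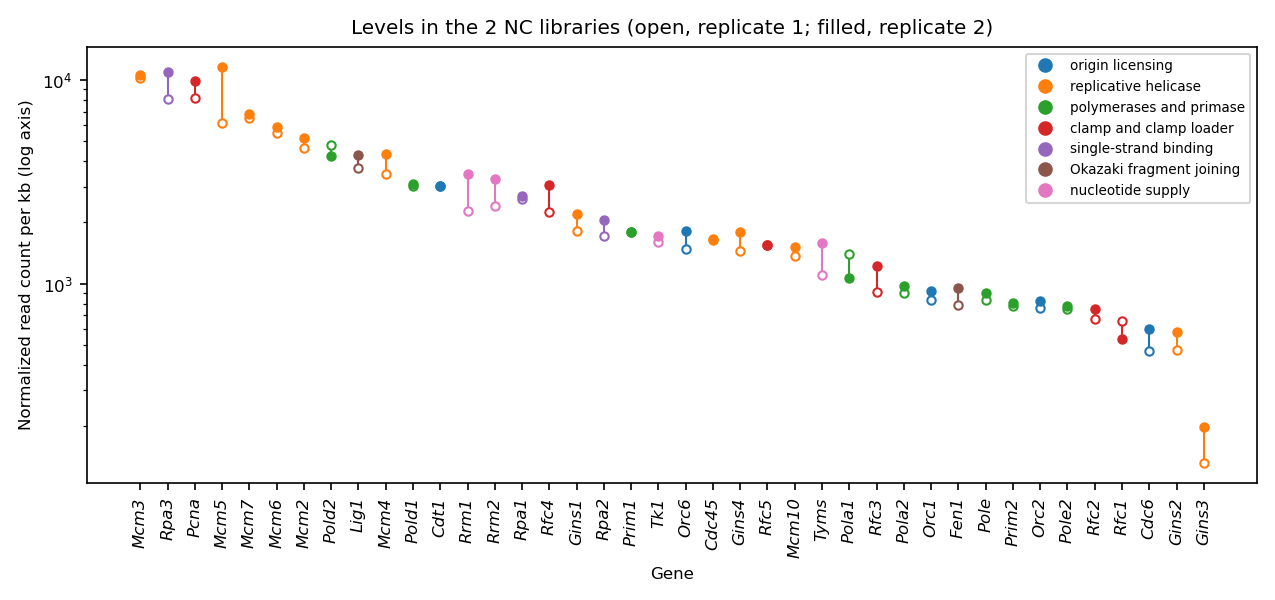
Normalized read count per kb of longest transcript (log axis) in the 2 NC libraries for the 40 genes, colored by role, with a line joining the libraries of a gene. Mcm3, Rpa3, Pcna and Mcm5 stand at the upper end and Gins3 stands alone at the lower end, with 332 and 501 reads before division by length.

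To find which of these genes changed with a compound, each of the 10 compounds was compared with NC. None of the 40 was called with any compound. Among all tested genes, 11.4% were called with DZNep, 5.28% with Valproate, 3.34% with Bromosporine, 0.973% with MS023, 0.388% with OICR, 0.116% with IOX1, 0.0174% with Chaetocin, 0.00579% each with CPTH2 and Garcinol, and 0% with UNC0379. The members are well expressed. Among the 8959 genes with a mean at least that of the lowest member, 6.91% were called with DZNep, 2.3% with Valproate, 1.54% with Bromosporine, 0.469% with MS023, 0.29% with OICR, 0.145% with IOX1, 0.0112% with Chaetocin and 0% with the other 3. With the 7 compounds other than DZNep, Valproate and Bromosporine, at most 0.973% of all genes were called. A count of 0 among 40 is near that background. It is also near the shares of the well expressed genes with Valproate (2.3%) and Bromosporine (1.54%). Of the 400 pairs of member and compound, 350 had a 95% interval that lay within 2-fold either way, and for the rest the interval reached past 2-fold. By compound this held for 33 (IOX1) to 37 (CPTH2 and OICR) of 40 members. Among the well expressed genes the share ran from 68.4% with DZNep to 89.9% with CPTH2. A change over 1.5-fold was seen in 9 pairs (2.25%, against 21% of all pairs of tested gene and compound). Among the well expressed genes this share was lower, from 1.4% with CPTH2 to 24.8% with DZNep. At an unadjusted p under 0.05 there were 29 pairs (7.25%, against 13.2% of all pairs).

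With DZNep the median absolute log2 change was 0.19 over the members, 0.46 over all tested genes and 0.31 over the well expressed genes. With Valproate it was 0.19 over the members, 0.33 over all genes and 0.22 over the well expressed ones. The gap to the well expressed genes was smaller with the other compounds than with DZNep. Members and well expressed genes were at 0.17 and 0.18 with Bromosporine, 0.16 and 0.19 with MS023 and 0.16 and 0.20 with IOX1. They were at 0.12 and 0.15 with OICR, 0.10 and 0.15 with UNC0379 and 0.13 and 0.14 with Chaetocin. Both were at 0.14 with Garcinol and at 0.07 with CPTH2. The members' median signed change was small with every compound, from -0.14 with Valproate to 0.06 with OICR, while that of all genes lay between -0.04 and 0.01. By the sign of the change, 21 to 30 of 40 members were below NC with each compound but OICR (14), where 48.4% to 54.9% of all tested genes were below. These comparisons share the 2 NC libraries, and without single libraries the sign of the members' median turned with every compound but MS023, to 0.099 with Bromosporine and -0.028 with OICR for example. A further description counts members whose 2 libraries both lay beyond both NC libraries. With MS023 15 of 40 members lay below both (23.6% of all tested genes) and 5 above both (21.8% of all genes), and with IOX1 14 below (24.2%) and 5 above (19.4%). With DZNep 10 were below (32.4%) and 4 above (26.5%), and with Valproate 11 below (27.6%) and 5 above (23%). With Bromosporine 9 were below (23%) and 10 above (26.4%), and with OICR 5 below (18.7%) and 7 above (21.4%). With Chaetocin 8 were below (20%) and 2 above (14%), and with Garcinol 7 below (17.4%) and 4 above (16.2%). With UNC0379 5 were below (17.6%) and 2 above (17.2%), and with CPTH2 4 below (7.96%) and 2 above (8.19%).

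**Figure D2:**
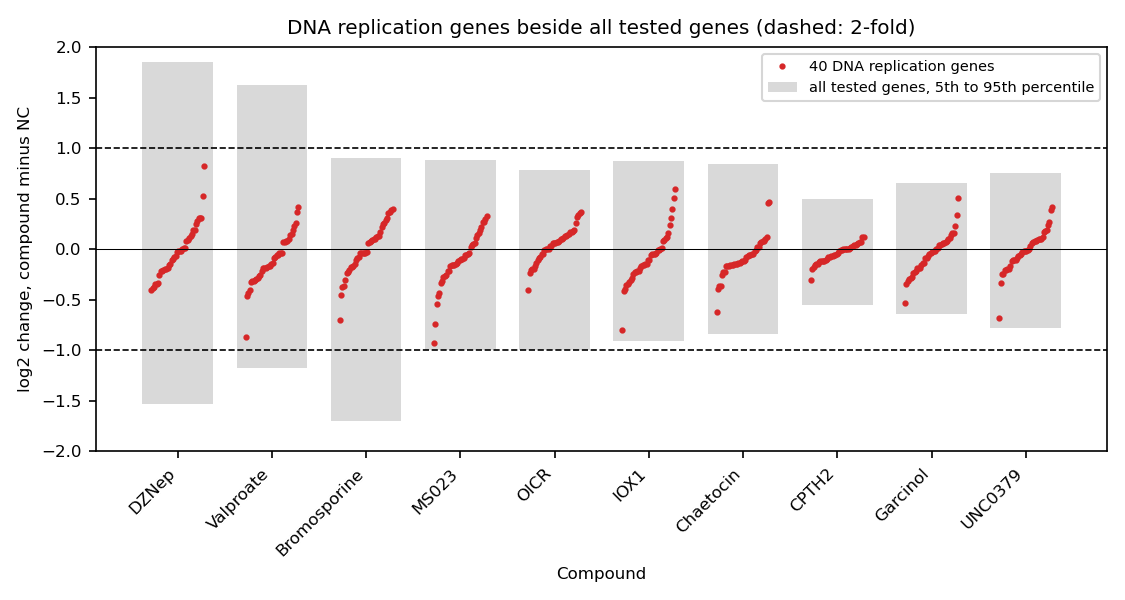
Log2 change against NC (vertical axis) of the 40 genes (red points, sorted within each compound) beside the 5th to 95th percentile range of all 17275 tested genes (gray bars). All red points lie between the dashed lines at a 2-fold change, from -0.93 (Rfc4 with MS023) to 0.82 (Fen1 with DZNep).

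A threshold on the adjusted p alone, with no minimum fold, was added after the values had been seen, and the members named by it were chosen in the same way. Under it 4 of 40 members passed with DZNep (23.6% of all tested genes), 2 with Valproate (10.3%) and 1 with Bromosporine (5.4%). Among the well expressed genes the shares were 25.9%, 9.86% and 4.29%. None passed with the other 7 compounds, where the background was 2.21% with MS023, 0.637% with OICR, 0.127% with IOX1, 0.0174% with Chaetocin, 0.00579% with CPTH2 and with Garcinol and 0% with UNC0379, and where the lowest adjusted p of a member was 0.157. In fits of only the 4 libraries compared, none of these 7 pairs passed (limma adjusted p of 0.0983 for Fen1 with DZNep to 0.379 for Mcm10 with Valproate). A moderated F test over the 11 groups asks whether a gene differs among groups without weight on NC. It passed for 6 of 40 members (29.7% of all tested genes and 29.4% of the well expressed ones): Orc1, Rfc5, Pole2, Orc2, Pola2 and Pold1.

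**Figure D3:**
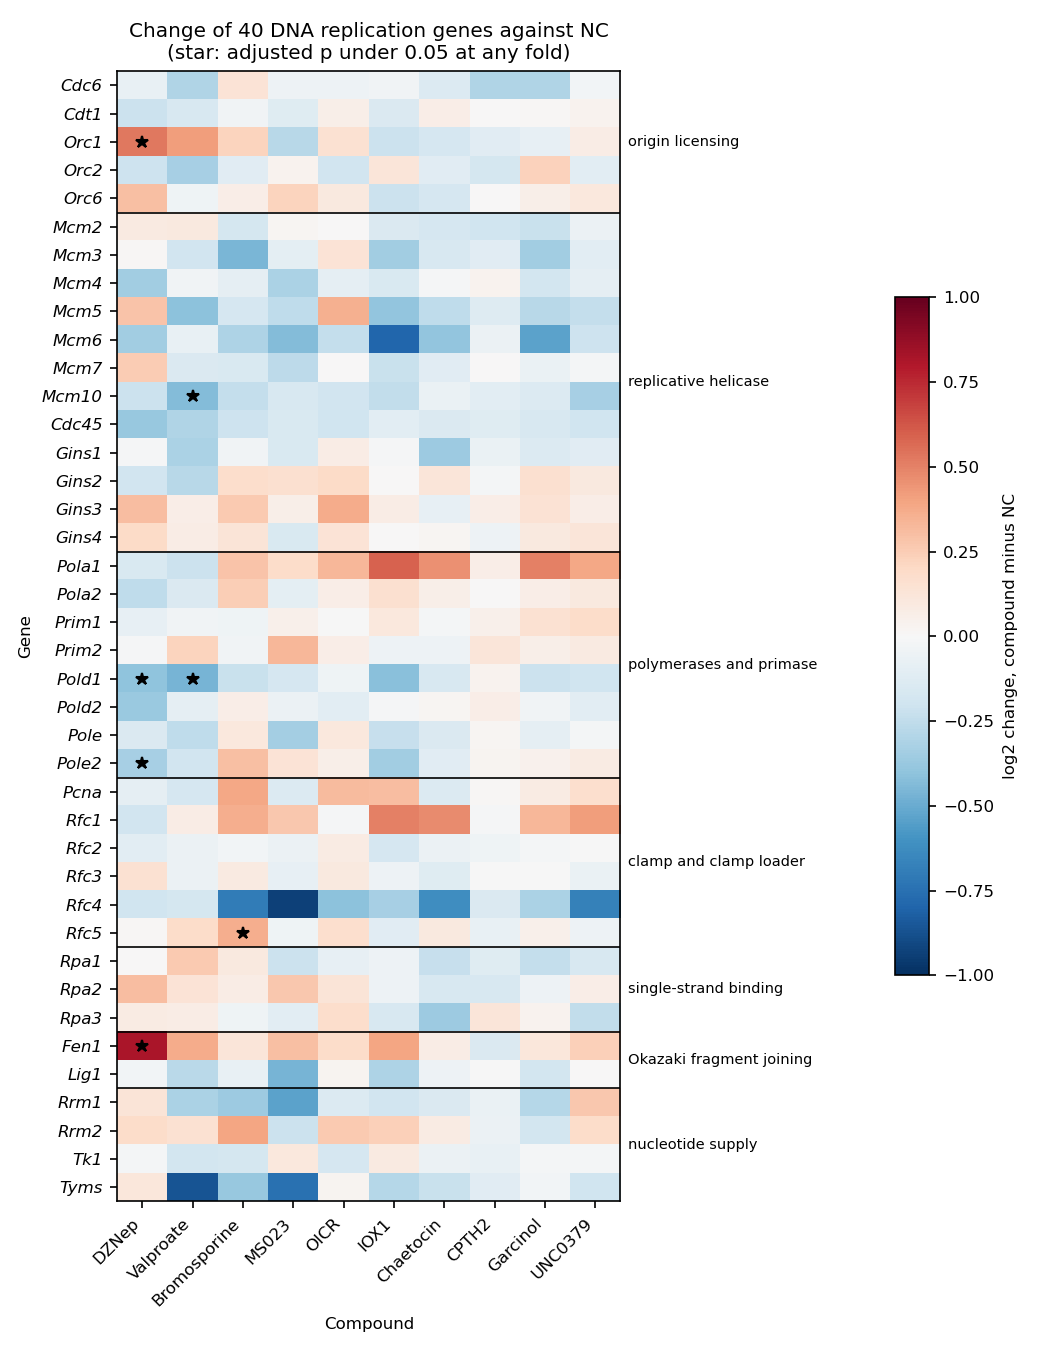
Log2 change against NC (color scale) for the 40 genes, grouped by role (rows), and 10 compounds (columns). Stars mark the 7 pairs with an adjusted p under 0.05 at any fold, of which 4 are with DZNep, 2 with Valproate and 1 with Bromosporine.

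Among the 5 licensing genes, Orc1 differed most between groups. Orc1 (ENSMUSG00000028587; mm10 chr4:108579423-108614833, plus strand) encodes the largest subunit of ORC, which marks origins. Its values were 2495 and 2777 in NC, 3881 and 3704 with DZNep, 3500 and 3522 with Valproate, 2897 and 3242 with Bromosporine, 2980 and 2868 with OICR and 2442 and 3152 with UNC0379. In the other groups they were 2266 and 2425 with Chaetocin, 2183 and 2707 with CPTH2, 2398 and 2571 with Garcinol, 2075 and 2487 with IOX1 and 2332 and 2020 with MS023. The DZNep and Valproate libraries were the 4 highest of the 22 and did not overlap any other group, and the libraries of MS023, IOX1 and Chaetocin lay below both NC libraries. Orc1 was 1.44-fold higher with DZNep than in NC (log2 change 0.53 ± 0.14, limma adjusted p = 0.0148 by Benjamini-Hochberg). With Valproate the change of 0.42 ± 0.14 did not pass (limma adjusted p = 0.0786), though it did after median-ratio rescaling (0.0392) and against the mean of the other 10 groups (0.0142). Among groups Orc1 gave an F test adjusted p of 0.00691 (limma), from a mean of 2176 with MS023 to 3793 with DZNep. The DZNep difference was at an adjusted p of 0.124 without NC replicate 1 and 0.0689 without DZNep replicate 1 (limma). Orc1 shares 12.3% of its 31-base stretches with transcripts of other genes.

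Orc2, another ORC subunit, differed among groups at an adjusted p of 0.0258 (limma F test) but from NC with no compound. Its lowest values were with Valproate (2289 and 2196), where both libraries were under both NC libraries (2701 and 2934), and its highest with Garcinol (3209 and 3406), where both were above. The F test was at 0.0503 to 0.084 without a library of Garcinol or Valproate or without IOX1 replicate 1. With CPTH2 (2383 and 2613), Orc2 was the member furthest below NC without overlap (-0.17 ± 0.11, limma adjusted p = 1). No difference of the loading factors Cdc6 and Cdt1 from NC passed. Cdc6 ranged from 1502 to 3159 over the libraries, with changes of -0.30 (CPTH2) to 0.13 (Bromosporine) and a lowest limma adjusted p of 0.614. Cdt1, whose NC values were equal at 6628, ranged from 5390 to 7666. Both libraries lay below NC with DZNep (5958 and 5477, change -0.21, limma adjusted p = 0.220), Valproate (6017 and 5833), Bromosporine (6460 and 6493) and MS023 (6532 and 5679).

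**Figure D4:**
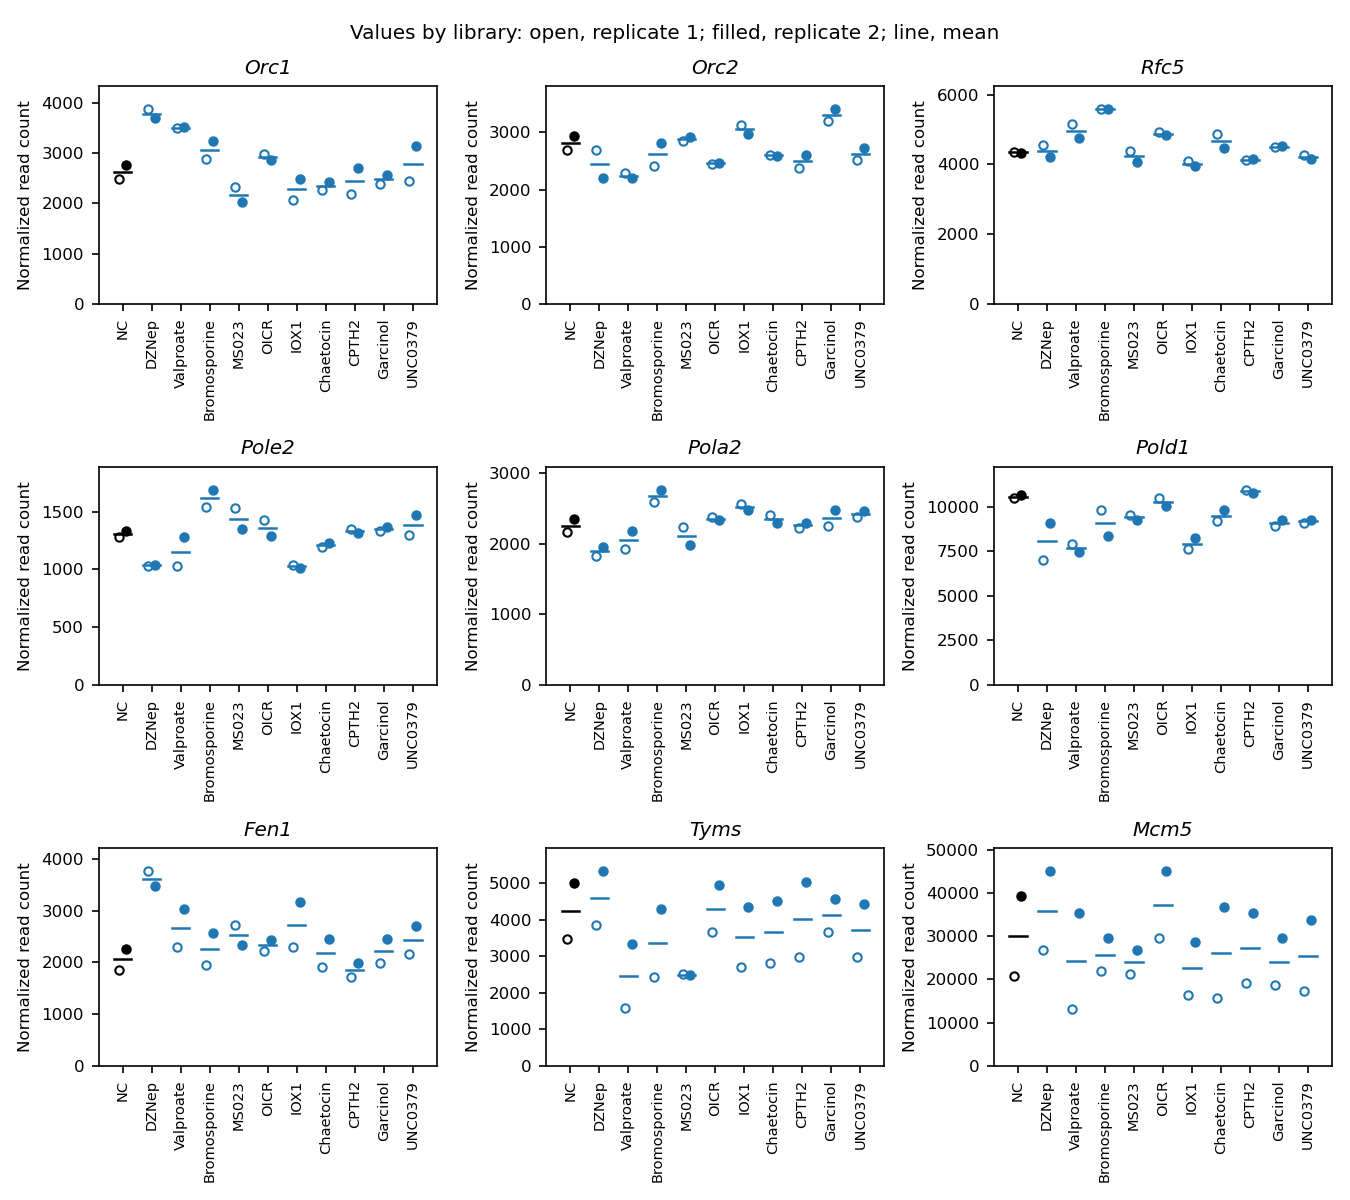
Normalized read counts (vertical axes, from 0) of 9 members in the 22 libraries, with replicate 1 as open and replicate 2 as filled circles, NC in black and group means as lines. Orc1 is high with DZNep and Valproate (3500 to 3881), Fen1 with DZNep (3470 and 3764), and replicate 2 of Mcm5 lies above replicate 1 in every group.

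Of the 12 helicase genes, 1 passed the p threshold alone. Mcm10, which helps to activate the helicase and to keep polymerase alpha at the fork, had values of 6659 and 7413 in NC and 4478 and 6063 with Valproate. Both Valproate libraries were below both NC libraries, and the replicates of Valproate were far apart. The change was -0.43 ± 0.12 (limma adjusted p = 0.0358), and the adjusted p was 0.075 without NC replicate 1, 0.211 without NC replicate 2 and 0.32 without Valproate replicate 1, where the change was -0.21. NC had the highest mean of Mcm10 of the 11 groups. The largest helicase difference was in Mcm6, an MCM ring subunit, which had 23885 and 25717 in NC and 12385 and 16469 with IOX1. These groups did not overlap, but the change of -0.80 ± 0.28 did not pass (limma adjusted p = 0.262). With Garcinol (15635 and 18784) and OICR (20763 and 21343) Mcm6 was again the member furthest below NC without overlap, at -0.53 and -0.24. NC had the highest mean of Mcm6, and for OICR the sign turned to 0.08 against the mean of the other 10 groups.

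Mcm5 varied most between libraries of all members, from 13125 to 45109 (3.44-fold). In NC its replicates 1 and 2 were at 20768 and 39324. They were at 26769 and 45109 with DZNep, 13125 and 35404 with Valproate, 21983 and 29528 with Bromosporine, 29528 and 45109 with OICR and 21350 and 26769 with MS023. The remaining groups had 15640 and 36715 with Chaetocin, 19257 and 35404 with CPTH2, 18790 and 29528 with Garcinol, 16477 and 28670 with IOX1 and 17271 and 33833 with UNC0379. Each of the 10 compound groups lay across the NC range or overlapped it, and the lowest limma adjusted p of Mcm5 was 0.718. Mcm2 kept between 12656 and 18732 over all libraries, with changes from -0.22 (Garcinol) to 0.10 (Valproate). Gins1 ranged from 1581 to 2721, with changes of -0.36 (Chaetocin) to 0.07 (OICR). No helicase gene passed the F test over groups.

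The 8 polymerase and primase genes gave 3 of the 6 genes that differed among groups. With DZNep all 8 had a change below 0, from -0.41 to -0.01 with a median of -0.21, while the median of all genes was -0.04 and 52.7% of all genes were below 0. With CPTH2 all 8 were above 0 (0.00 to 0.12). Pold1 (ENSMUSG00000038644; mm10 chr7:44532746-44548849, minus strand) encodes the catalytic subunit of polymerase delta. It had values of 10469 and 10652 in NC, 6996 and 9086 with DZNep, 7868 and 7450 with Valproate, 9784 and 8370 with Bromosporine, 7617 and 8226 with IOX1 and 10910 and 10778 with CPTH2. The remaining groups had 9169 and 9784 with Chaetocin, 8907 and 9262 with Garcinol, 9518 and 9262 with MS023, 10469 and 10004 with OICR and 9086 and 9262 with UNC0379. CPTH2 was above NC, and the libraries of all other compounds except OICR replicate 1 were below both NC libraries. The change was -0.41 ± 0.11 with DZNep (limma adjusted p = 0.0179) and -0.46 ± 0.11 with Valproate (limma adjusted p = 0.0178). For DZNep the adjusted p was 0.08 without NC replicate 1, 0.0741 without NC replicate 2 and 0.169 without DZNep replicate 1, where the change was -0.22, and for Valproate it was 0.0596 to 0.0922 without any 1 of the 4 libraries. Against the mean of the other 10 groups the DZNep change was -0.22 (limma adjusted p = 0.0557). The F test over groups was at 0.0268 for Pold1, and at 0.0516 to 0.0597 without a library of NC or CPTH2, IOX1 replicate 1, OICR replicate 1 or Valproate replicate 2.

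Pole2 (ENSMUSG00000020974; mm10 chr12:69201773-69228195, minus strand), the second subunit of polymerase epsilon, was the polymerase gene with the smallest F test p (adjusted p = 0.00892, limma). Its values were 1280 and 1333 in NC, 1030 and 1040 with DZNep, 1038 and 1010 with IOX1, 1027 and 1277 with Valproate, 1543 and 1684 with Bromosporine and 1530 and 1347 with MS023. In the other groups they were 1193 and 1224 with Chaetocin, 1351 and 1318 with CPTH2, 1332 and 1362 with Garcinol, 1430 and 1290 with OICR and 1298 and 1472 with UNC0379. Bromosporine and DZNep lay on either side of NC with no overlap, and IOX1 was as low as DZNep. With DZNep the change was -0.34 ± 0.11 (limma adjusted p = 0.0446), and the adjusted p was 0.0979 to 0.158 without any 1 of the 4 libraries. It was also 0.0694 after median-ratio rescaling and 0.0567 without a variance trend.

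Pola2, the second subunit of polymerase alpha, had a similar order, with 1825 and 1960 with DZNep, 2169 and 2351 in NC and 2600 and 2760 with Bromosporine. These groups did not overlap. Its F test was at 0.0261 (limma), and at 0.0504 to 0.067 without a Bromosporine library or DZNep replicate 1. Pola1, the catalytic subunit, gave the largest positive values without overlap with 2 compounds. Against 7466 and 5722 in NC it had 10674 and 9095 with IOX1 (0.59 ± 0.31, limma adjusted p = 0.465) and 10309 and 8304 with Garcinol (0.50 ± 0.31, limma adjusted p = 0.967). Neither passed, and replicate 1 was above replicate 2 in 10 of the 11 groups. Prim2, the large primase subunit, was at 1535 and 1598 in NC and 1910 and 2037 with MS023 (0.33 ± 0.11, limma adjusted p = 0.157). With CPTH2 it gave 1679 and 1731 (0.12 ± 0.11). Prim1, the small primase subunit, was at 3363 and 3096 with UNC0379 against 2834 and 2841 in NC (0.19 ± 0.19). Pole, the catalytic subunit of polymerase epsilon, ranged from 4631 to 6813 and was lowest with MS023 (5200 and 4631, change -0.34, limma adjusted p = 0.197).

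In the clamp and its loader, Rfc5 was higher with Bromosporine. Rfc5 (ENSMUSG00000029363; mm10 chr5:117378103-117389047, minus strand) encodes a small RFC subunit. It had 4354 and 4333 in NC, 5578 and 5578 with Bromosporine, 5144 and 4752 with Valproate, 4548 and 4223 with DZNep, 4914 and 4835 with OICR and 4094 and 3947 with IOX1. The remaining groups had 4858 and 4454 with Chaetocin, 4111 and 4143 with CPTH2, 4489 and 4528 with Garcinol, 4394 and 4056 with MS023 and 4253 and 4143 with UNC0379. The Bromosporine libraries were above all others, and equal values are left by a normalization that assigns values by rank. The change was 0.36 ± 0.08, or 1.28-fold (limma adjusted p = 0.0163), and the F test over groups was at 0.00802. The change against NC was at an adjusted p of 0.0709 to 0.1 without any 1 of the 4 libraries. Rfc5 shares 33% of its 31-base stretches with transcripts of other genes, and Wsb2 overlaps it on the opposite strand (1803 and 1639 in NC, 1834 and 1846 with Bromosporine). Wsb2 differed by 0.10, less than Rfc5.

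Rfc4, a further small RFC subunit, was the member furthest below NC without overlap with 4 compounds. It had 2892 and 3892 in NC, 1630 and 1902 with MS023, 1598 and 2677 with Bromosporine, 1614 and 2725 with UNC0379 and 1942 and 2448 with Chaetocin. NC had the highest mean, but CPTH2 (2199 and 4197) and DZNep (1892 and 4528) reached above it. The change with MS023 was -0.93 ± 0.43 (limma adjusted p = 0.331), and the others were -0.70, -0.68 and -0.62. None passed, and Eif4a2, an abundant gene with values of 92398 and 59516 in NC, overlaps Rfc4 on the opposite strand. Eif4a2 had 67688 and 59516 with MS023, 76118 and 49460 with Bromosporine, 92398 and 59516 with UNC0379 and 92398 and 44980 with Chaetocin. Rfc1, the large RFC subunit, had 4776 and 3190 with Chaetocin against 3130 and 2540 in NC (0.47 ± 0.41, limma adjusted p = 0.858). Pcna, the clamp itself, had 12385 and 15025 in NC, 15951 and 19849 with Bromosporine and 15391 and 18784 with OICR. Both groups were above NC without overlap, by 0.38 and 0.32, and neither passed (lowest limma adjusted p 0.299).

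Fen1 showed the largest positive difference of any member. Fen1 (ENSMUSG00000024742; mm10 chr19:10199132-10204169, minus strand) encodes the nuclease that trims the flap between Okazaki fragments. It had 1860 and 2254 in NC, 3764 and 3470 with DZNep, 2305 and 3027 with Valproate, 2299 and 3165 with IOX1, 2725 and 2327 with MS023 and 1942 and 2567 with Bromosporine. In the other groups it had 1907 and 2448 with Chaetocin, 1719 and 1991 with CPTH2, 1996 and 2448 with Garcinol, 2222 and 2433 with OICR and 2156 and 2710 with UNC0379. The 2 DZNep libraries were the highest of the 22. Fen1 was 1.76-fold higher with DZNep (log2 change 0.82 ± 0.21, 95% interval 0.37 to 1.27, limma adjusted p = 0.0116), and the adjusted p was 0.114 without NC replicate 1 and 0.062 without DZNep replicate 1. Its F test over groups did not pass (adjusted p = 0.0891, limma). Fen1 shares 82.2% of its 31-base stretches with transcripts of other genes, and Tmem258 overlaps it on the opposite strand. Tmem258 had 1559 and 2115 in NC and 2520 and 2874 with DZNep (0.57, limma adjusted p = 0.0302). Neither labels nor methods state that reads were counted by strand, and the part of Tmem258 in the Fen1 value was not tested. Lig1, the ligase that seals Okazaki fragments, ranged from 8733 to 14424 and was lowest with MS023 (8733 and 9554 against 11690 and 13634 in NC, change -0.47, limma adjusted p = 0.219).

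The 3 RPA subunits, which coat single-stranded DNA, gave no difference from NC that passed. Rpa1 had 13277 and 13763 in NC and 14933 and 17540 with Valproate, which did not overlap (0.26, lowest limma adjusted p of Rpa1 0.465). With Garcinol it was lowest, at 10264 and 12808. Over the 10 compounds the RPA changes ran from -0.36 to 0.31.

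Nucleotide supply genes gave no difference from NC that passed, in the fit without a replicate block. Tyms, thymidylate synthase, had 3477 and 5013 in NC and 1574 and 3338 with Valproate. Both Valproate libraries were below both NC libraries, and the change of -0.86 ± 0.41 was the second largest negative one of all pairs, with a limma adjusted p of 0.223. With MS023 it had 2511 and 2478 (-0.74 ± 0.41, limma adjusted p = 0.445). Rrm2, the regulatory subunit of ribonucleotide reductase, had 5311 and 7135 in NC and 7310 and 8973 with Bromosporine, without overlap (0.40 ± 0.22, limma adjusted p = 0.363). Tk1, thymidine kinase, stayed between 1887 and 2805, with changes of -0.18 (Valproate) to 0.11 (MS023).

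The 3 compounds with the most calls over all genes were compared directly. No member was called in any of the 3 comparisons, where 10.8% of all tested genes were called for DZNep minus Valproate, 14.8% for DZNep minus Bromosporine and 8.64% for Valproate minus Bromosporine. With no minimum fold, 7 of 40 members passed for DZNep minus Bromosporine (27.9% of all genes), 3 for Valproate minus Bromosporine (15.4%) and 0 for DZNep minus Valproate (23.2%), where 5 members were at an unadjusted p under 0.05 (34.8% of all genes). Of the 7 members that passed, 3 were polymerase subunits that were lower with DZNep than with Bromosporine. Pole2 differed by -0.64 ± 0.11 (limma adjusted p = 0.000959), Pola2 by -0.50 ± 0.09 (limma adjusted p = 0.00147) and Pold2, the second subunit of polymerase delta, by -0.44 ± 0.14 (limma adjusted p = 0.03). Rfc5 (-0.35) and the GINS subunit Gins2 (-0.37) were lower with DZNep as well, and Mcm3 (0.47) and Fen1 (0.69) were higher. With Valproate, Pole2 (-0.49), Pola2 (-0.39) and Gins2 (-0.45) were lower than with Bromosporine, at limma adjusted p of 0.0103, 0.014 and 0.0199. Gins2 shares 70.5% of its stretches with other transcripts, and Gse1 overlaps it on the opposite strand. Gse1 had 2696 and 2830 with Bromosporine. It was lower with Valproate (1501 and 2287), as Gins2 was, and higher with DZNep (3167 and 3167), unlike Gins2. The part of Gse1 in the Gins2 value was not tested. The largest gap between DZNep and Valproate was in Tyms, at 3842 and 5321 against 1574 and 3338 (0.98 ± 0.41, limma adjusted p = 0.108). Without Valproate replicate 2 Tyms was called in that comparison, so the count became 1. For DZNep minus Bromosporine, Pole2, Pola2 and Rfc5 passed when any single library was left out. The limma adjusted p of the others was 0.111 to 0.231 for Mcm3 without a Bromosporine library or DZNep replicate 2, 0.179 and 0.205 for Gins2 without replicate 2 of either group, 0.057 to 0.209 for Fen1 without a DZNep library or Bromosporine replicate 1, and 0.0681 to 0.155 for Pold2 without any 1 library. After median-ratio rescaling Pold2 (0.0999) and Gins2 (0.0834) did not pass in that comparison. For Valproate minus Bromosporine all 3 were lost without Bromosporine replicate 2 (0.0878 to 0.159), Gins2 also without Valproate replicate 2 (0.134), and Pola2 and Pole2 without Valproate replicate 1 (0.113 and 0.101). In fits of only the libraries compared none of the 10 differences passed (0.0835 to 0.227). These 3 comparisons share libraries with each other.

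Beside the differences between groups, replicate 2 was compared with replicate 1 within each of the 11 groups. Counts of members with the same direction in all 11 lay near or under the shares of all genes. Replicate 2 was above replicate 1 in 11 of 11 groups for 6 of 40 members (12.3% of all tested genes). These were Mcm5 (mean log2 difference 0.82), Rfc4 (0.59), Rrm1 (0.52), Gins1 (0.33), Rpa1 (0.26) and Lig1 (0.23). Rfc1 was below in all 11 (-0.58), as were 8.75% of all genes. For Mcm5 the mean value was 20087 in replicates 1 and 35036 in replicates 2. For 27 of 40 members this mean difference was larger than the SD among the 11 group means, against 38.7% of all genes. In 9 of the groups the median difference over the members lay between 0.13 and 0.29, while that of all genes lay between 0.01 and 0.04. MS023 (-0.09) and OICR (0.04) stood outside that range. The SE of a difference from NC was 0.43 for Rfc4 and 0.41 for Tyms (mean difference between replicates 0.58), against a median of 0.18 over the members. The members Orc1, Orc2, Pold1, Pole2, Pola2 and Rfc5, which passed the F test, had mean differences between replicates of -0.05 to 0.10. In a fit without a block, a difference between replicates adds to the residual spread, so the test favors members with a small one.

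**Figure D5:**
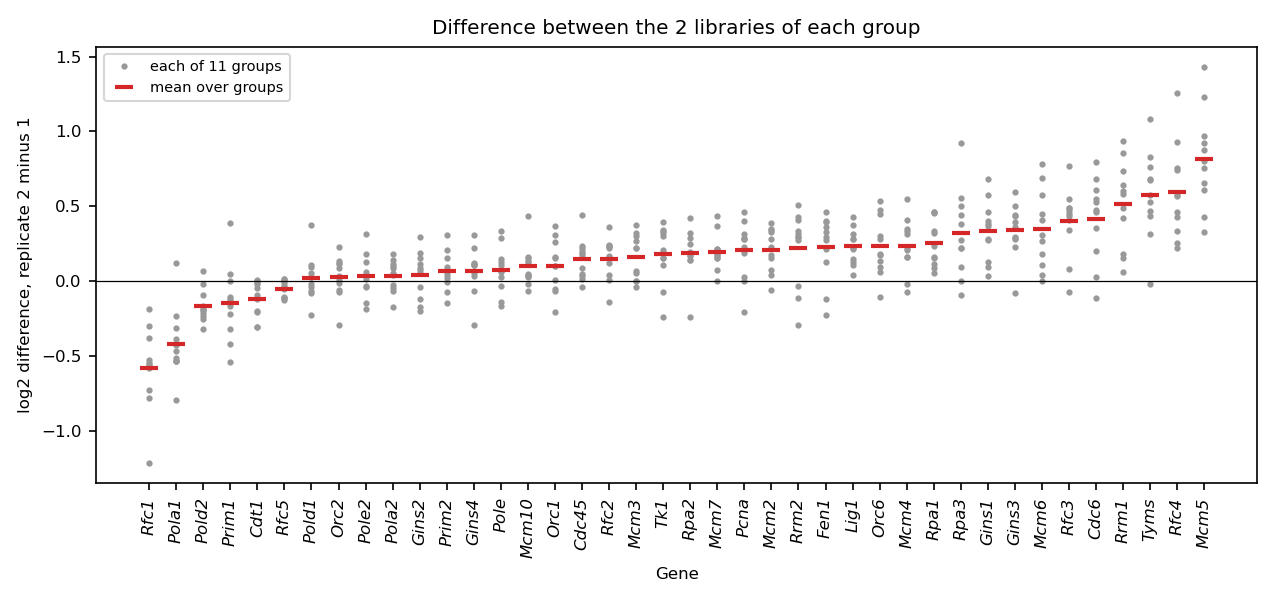
Log2 difference between replicate 2 and replicate 1 (vertical axis) for each of the 40 genes (horizontal axis), with 1 gray point per group and the mean in red. Mcm5 (mean 0.82) and Rfc1 (mean -0.58) mark the ends of the order.

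Other genes of DNA replication, its checkpoint and mitosis, from lists written from general knowledge, gave the same count of 0. None of the 14 other licensing and firing genes, 23 other fork and polymerase genes, 12 other nucleotide supply genes, 9 checkpoint genes or 24 mitosis genes was called with any compound. With the p threshold alone, 4 of the 14 licensing and firing genes were lower with DZNep and none higher (23.6% of all tested genes in either direction). Mtbp, a partner of the firing factor Treslin, had 2383 and 2036 in NC, 1428 and 1512 with DZNep, 1386 and 1280 with Valproate and 1705 and 1608 with Bromosporine. It lay below NC without overlap with all 3 (-0.58, -0.73 and -0.41). The others with DZNep were Orc3 (-0.58), the DDK subunit Dbf4 (-0.48) and Topbp1 (-0.57). Of the 23 fork and polymerase genes, 5 were lower and 2 higher with DZNep, and the 24 mitosis genes gave 3 lower and 0 higher. The 9 checkpoint genes gave 1 lower and 1 higher with DZNep. Of the 12 nucleotide supply genes, 4 were higher with DZNep and 0 lower. Nme1, a nucleoside diphosphate kinase, had 2161 and 2912 in NC and 4555 and 5324 with DZNep (0.97 ± 0.20, limma adjusted p = 0.00288), and Dtymk, thymidylate kinase, had 10616 and 12635 in NC and 17174 and 21208 (0.72 ± 0.14, limma adjusted p = 0.00199). Shmt1 (0.47) and Nme2 (0.59) were the other 2. At the same threshold the mitosis gene Aurkb (-0.61) and the fork gene Wdhd1 (-0.65) were lower with MS023 (2.21% of all tested genes). With Valproate (10.3%) Aurkb (-0.57) and the fork gene Timeless (-0.38) were lower and Shmt1 (0.42) was higher.

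Among 20 E2F and RB regulators, 2 were called, both with DZNep and both lower, where 11.4% of all tested genes were called. Rbl1, the RB relative p107, had 1241 and 1156 in NC and 635 and 549 with DZNep (-1.02 ± 0.14, limma adjusted p = 0.000215). Cdkn1b, the CDK inhibitor p27, had 2571 and 1976 in NC and 1145 and 875 with DZNep (-1.17 ± 0.21, limma adjusted p = 0.00146). DZNep libraries were below NC without overlap for both genes. Cdkn1b was at 1245 and 1095 with Valproate (-0.95, limma adjusted p = 0.0114), just under the 2-fold limit. With the p threshold alone, Rb1, the RB protein itself, was higher with DZNep (556 and 492 in NC, 853 and 766 with DZNep, 0.63, limma adjusted p = 0.0231). So was its relative Rbl2 (390 and 382 in NC, 605 and 479 with DZNep, 0.48, limma adjusted p = 0.0381). Tfdp2 was lower with DZNep (-0.28, limma adjusted p = 0.0355) and MS023 (-0.55, limma adjusted p = 0.00784). With Valproate Cdkn1a was higher (0.49, limma adjusted p = 0.00793) and E2f8 lower (-0.82, limma adjusted p = 0.0485). Of all tested genes 23.6% passed with DZNep, 10.3% with Valproate and 2.21% with MS023.

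Some markers of other cell types were called as well. Of all tested genes, 11.4% were called with DZNep, 5.28% with Valproate, 3.34% with Bromosporine and 0.973% with MS023. The marker lists are short, so single calls in them are not set apart from these shares. Of 9 fibroblast markers 8 were tested, and their summed level was 767 and 1495 in NC, 1789 and 2023 with DZNep, 1701 and 1554 with Valproate and 787 and 697 with Bromosporine. Col1a1 (24 and 24 in NC, 327 and 228), Thy1 (12 and 11 in NC, 66 and 64) and Pdgfra (22 and 19 in NC, 120 and 85) were called higher with DZNep. With Valproate Thy1 (358 and 303), Pdgfra (88 and 78) and Lum (197 and 331) were called higher, and with Bromosporine Col1a1 (7 and 6) was called lower. Most of the NC sums came from Postn (474 and 559 in NC) and Col3a1 (4 and 743 in NC), which were not called with any compound. Postn ranged from 0 to 819 over the libraries and was at 0 in 12 of the 22. The fibroblast sums therefore do not follow the called genes alone. Of 7 trophoblast markers 6 were tested, with a summed level of 292 and 509 in NC, 1314 and 921 with DZNep, 886 and 748 with MS023, 692 and 433 with Valproate and 416 and 379 with Bromosporine. DZNep and MS023 lay above NC, as did OICR (627 and 518), and Valproate and Bromosporine overlapped its range. Gata3 (0 and 9 in NC, 44 and 54) and Krt8 (140 and 411 in NC, 881 and 504) were called higher with DZNep. Hand1 (9 and 4 in NC, 0 and 0) was called lower with Bromosporine. Of 7 endoderm markers 4 were tested (summed level 432 and 345 in NC, 347 and 654 with DZNep), with 1 called higher and 1 lower with DZNep. Of 6 mesoderm markers 4 were tested (1176 and 1024 in NC, 1024 and 1268 with DZNep), with 1 called higher with DZNep and 1 with Bromosporine. All 6 neural markers were tested (3444 and 5114 in NC, 4821 and 5418 with DZNep), with 1 called higher and 2 lower with DZNep, 1 higher and 1 lower with Valproate and 1 lower with MS023. Dcn, a defining fibroblast marker, was at 0 in every library, and Lum was at 0 in both NC libraries. These sums are small beside the ESC markers, which summed to 226774 and 224605 in NC and to 287999 and 317535 with DZNep. Of the 12 ESC markers, Utf1 was called higher with DZNep (1.91), Bromosporine (1.55), OICR (1.39) and Valproate (1.32). Zfp42 was called higher with DZNep (1.15), and no ESC marker was called lower. With OICR 0.388% of all tested genes were called. The part of other cell types in the DZNep and Valproate values above was not tested.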

How the data were processed

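RNA of 22 E14 libraries was measured, 2 in each of 11 groups, and groups and replicate numbers were taken from titles and treatment labels. The values, as deposited by the authors, are scores: read counts after normalization, rounded to whole numbers. According to the study's methods, which do not mention the compounds, the authors aligned reads to mm10, counted them with RSEM or TEtranscripts, normalized with EDASeq at its full setting and tested with DESeq2. The submitters' processing notes name RSEM, Bowtie2 2.2.5 and bcl2fastq, and do not name TEtranscripts. Full-quantile normalization assigns values by rank, so equal values occur between libraries, and Mcm3 takes 9 distinct values in 22 libraries. Depth per library is unknown, so no interval for counting error is given. A second deposited table holds the authors' group means and was not used. All columns were mapped, with 0 left out.

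Values were fitted as log2(value + 1) with 11 group means in limma 3.58.1 (R 4.3.3), with a variance trend and 11 residual degrees of freedom, on 17275 of 18487 genes. P-values are two-sided and adjusted by Benjamini-Hochberg within each contrast. The thresholds were an adjusted p under 0.05 and a 2-fold change. The fit was run on simulated data with independent libraries and planted changes over 2-fold. That simulation did not cover a difference shared by replicate number, or changes as small as those of the members. The members, lists and tests were chosen with earlier results of these data known. Members named were those called, for each compound the largest difference in each direction among members with no overlap with NC, and 14 fixed members. The named members that pass an adjusted p at any fold, or the F test, or that open a paragraph for their spread, and the named genes of other lists that were not called, were chosen after their values were seen. Gene positions, transcript lengths and shared 31-base stretches came from GENCODE M21 (mm10), and promoters from RefSeq. Python 3.11.15, pandas 2.3.3, numpy 2.4.6 and matplotlib 3.10.9 were used. Alternatives were other pseudocounts, filters, scalings, references and fits, the replicate number as a block, and leaving out each library.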

Additional observations from a re-analysis of the deposited data

How the results depend on the processing

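The count of members called against NC was 0 under every alternative that kept the 2-fold limit, for all 10 compounds. With no minimum fold it was 1 with Bromosporine, 4 with DZNep and 2 with Valproate, and between compounds 7 for DZNep minus Bromosporine and 3 for Valproate minus Bromosporine. Leaving out single libraries gave 0 to 1 for DZNep minus Valproate. The number of members that differ among groups was 4 to 7 when single libraries were left out. Medians over the members ran, without single libraries, from -0.083 to 0.099 with Bromosporine, from -0.20 to -0.0051 with MS023 and from -0.028 to 0.14 with OICR, the values furthest apart being those without a library of NC. The change of Mcm6 with OICR became 0.080 against the mean of the other 10 groups. Of the tests of single members, 64 results on log2 changes lost the adjusted p threshold under an alternative and 10 gained it, and 335 kept direction and side. The F tests of Orc1, Rfc5 and Pole2 passed under all 28 alternatives. The cause of these changes was not tested.

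The groups share replicate numbers, but the labels do not say that a number marks a shared batch, so the number was not used as a block in the reported fit. Differences between replicates 2 and 1 correlated across genes between every 2 groups, with r from 0.0535 to 0.298 over 55 pairs of groups. With the replicate block the 2-fold count stayed at 0 for all compounds, and 23 members differed among the 11 groups (65.9% of all tested genes), including the 6 without the block. With the replicate block and no minimum fold, chosen after seeing the data, 3 members passed with Bromosporine (16.5% of all genes), 10 with DZNep (43%), 3 with IOX1 (5.34%), 4 with MS023 (10.2%) and 8 with Valproate (26.7%). They include these differences that did not pass without the block, with their limma adjusted p: Tyms (0.00529) and Orc1 (0.0221) with Valproate, Rfc4 with MS023 (0.013) and Bromosporine (0.0327), Prim2 with MS023 (0.0437), and Mcm6 (0.0293) and Pola1 (0.0464) with IOX1. Each group has 2 libraries and no known depth, which limits what smaller changes can be seen.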
